A study of Mus musculus with 2 samples.

Results

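The cells described here were later erythroid cells of the mouse fetal liver, chosen by alpha-globin level as the highest of 3 equal groups (tertiles) of erythroid-gated cells, ranked by the share of their transcripts that came from the alpha-globin genes Hba-a1 and Hba-a2. Transcripts were counted as unique molecular identifiers (UMIs), each of which stands for a single captured RNA molecule. The gate required at least 3 Klf1 UMIs in a cell and low counts of megakaryocyte, granulocyte, monocyte, mast cell and basophil genes. Of 14688 barcodes in both libraries, 14101 passed the quality filters, 9521 passed the gate, and 3173 formed the highest tertile. They were 1613 knockout and 1560 control cells. The members were thus selected on alpha-globin and Klf1, and the levels of these genes are given as a description. The lowest cell inside took 0.203914% of its UMIs from alpha-globin and the highest cell outside took 0.203823%. Of the members, 167 lay within 10% above that limit.

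Both libraries came from C57BL/6 embryos at E14.5 and from fetal liver cells sorted as Lineage- c-Kit+, which are blood stem and progenitor cells. The knockout genotype was CD45.2(+) Vav1-iCre Brd9fl/fl and the control genotype was CD45.2(+) Brd9fl/fl. Both thus carried floxed Brd9, the recombinase was driven by Vav1, a gene active across blood cells, and no library had the recombinase without floxed Brd9, so effects of the recombinase and of Brd9 loss cannot be told apart. With 1 library per genotype and no number of embryos given in the sources used here, every interval below is a 95% interval of counting error, and no p-value is given.

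Erythroid precursors of the fetal liver start from Kit-bearing progenitors, turn on globin, heme and membrane genes as they mature, lose Kit, and later expel the nucleus. Hemoglobin joins alpha-globin chains with beta-globin chains, and C57BL/6 mice carry a pair of neighbouring adult beta-globin genes, Hbb-bs and Hbb-bt, beside embryonic genes such as Hbb-y and Hbb-bh1. Brd9, a protein with a bromodomain, belongs to the non-canonical BAF complex, which repositions nucleosomes.

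The neighbouring adult beta-globin genes had very different ratios between the libraries, so the 150 bases before the RefSeq start of each are shown, from the GRCm38.p6 table. Capitals mark matches, on either strand, to the letters CACCC (the CACCC box), CCAAT (the CCAAT box), ATATAA (the TATA box) and AGATAA (one form of the GATA motif). The Hbb-bs window is chr7:103827929-103828078 and the Hbb-bt window is chr7:103813924-103814073, both read 5′ to 3′ along the minus strand.
Hbb-bs: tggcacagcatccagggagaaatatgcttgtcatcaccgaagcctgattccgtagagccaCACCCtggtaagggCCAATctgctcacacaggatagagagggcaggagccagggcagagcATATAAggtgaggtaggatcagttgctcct
Hbb-bt: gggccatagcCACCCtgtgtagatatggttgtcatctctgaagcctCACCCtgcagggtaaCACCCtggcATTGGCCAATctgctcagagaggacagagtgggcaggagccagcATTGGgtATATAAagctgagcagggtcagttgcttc
In a global alignment with gaps, 110 of 150 bases (73.3%) were matched and identical between the windows. Hbb-bs held 1 CACCC box, 1 CCAAT box and 1 TATA box, whereas Hbb-bt held 3, 3 and 1. Of the CCAAT matches of Hbb-bt, 2 read on the opposite strand. Neither window held this GATA motif. Of 32851 mouse promoter windows of the same length, 37.4% held the CACCC box, 24.5% the CCAAT box, 5.35% the TATA box and 5.65% the GATA motif. GENCODE M21 places the starts of some transcripts of both genes inside or before these windows. In a like alignment, 147 of 150 bases (98%) of the Hba-a1 and Hba-a2 windows were matched and identical. The other bases lay at the window ends, since the windows are offset, with the CACCC box at -60 in Hba-a1 and -63 in Hba-a2. The coding parts of each pair are also near-identical, so how the authors' counting split shared reads within a pair is uncertain.

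The members carried the erythroid label on genes that the gate and the ranking did not use, although the cells had been sorted on c-Kit. In the control library Slc4a1, the anion exchanger band 3, stood at 1.16 UMIs per 1000000 UMIs of the library (CPM) in the lowest alpha-globin tertile, 8.37 CPM in the middle tertile and 142 CPM in the highest tertile. Kit stood at 98.7, 47.3 and 12.2 CPM. In the knockout library Slc4a1 stood at 1.05, 4.09 and 97.1 CPM and Kit at 87.2, 49.3 and 15.3 CPM. Both libraries thus showed more Slc4a1 and fewer Kit transcripts with alpha-globin share, within cells sorted for c-Kit. Alas2, the first enzyme of heme synthesis in red cells, was at only 35.5 and 37.1 CPM in the highest tertile. Markers of other cell types were low in the members, but the gate itself capped some of them. Low sums of the megakaryocyte, granulocyte-monocyte, mast and basophil, and monocyte and dendritic lists were thus partly set by the selection. Summed over each marker list, knockout and control levels were 21.4 and 22.9 CPM for megakaryocyte, 17.4 and 33.4 for granulocyte-monocyte, 1.97 and 1.29 for mast and basophil, 5.21 and 2.86 for stem, 4.98 and 4.14 for hepatoblast, 0.295 and 0.943 for macrophage, and 1.67 and 1.08 CPM for lymphoid markers. Ppbp, Gp6, Rag1, Cd3e, Ly6a and Cd163 had no UMI in either library. The monocyte and dendritic list summed to 87.7 and 89.7 CPM, of which Cst3, a protease inhibitor that many cells express, gave 85.7 and 87.5 CPM.

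Depth was alike in both libraries, but the mix of sexes was not. Knockout members held a median of 35445 UMIs and 5757 genes and control members one of 36149.5 UMIs and 5697.5 genes, with sums of 61037392 and 60441556 UMIs. Mitochondrial genes took a median of 3.13% and 3.60% of UMIs. By Xist and Y-linked transcripts, 52.9% of knockout members (50.5 to 55.4) and 21.9% of control members (19.8 to 24.0) were female, so values within female and within male cells are given beside the pooled ones. Members with transcripts of both sexes numbered 48 (2.98%) and 24 (1.54%), and the libraries shared 2 member barcodes.

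The highest tertile took 34.7% of gated knockout cells (33.3 to 36.1) and 32.0% of gated control cells (30.7 to 33.4), a ratio of 1.08 (1.02 to 1.15). Among female cells the shares were 30.4% and 29.4%. Among male cells they were 41.2% (38.9 to 43.6) and 32.9% (31.4 to 34.5), a ratio of 1.25. When the same gated cells were instead ordered by a set of other red cell genes that includes Slc4a1, Alas2 and Epb42, the highest tertile took 33.1% and 33.5%, a ratio of 0.987 (0.933 to 1.05). Some of these genes themselves differed between the libraries, and the part of this in the ratio was not tested. Inside the highest tertile, knockout cells sat further up the alpha-globin scale. Their median alpha-globin share was 0.557% (quartiles 0.343% and 0.924%), against 0.466% (0.309% and 0.767%) in control cells, and the ranges overlapped almost entirely. Genes that track maturation are therefore also given at matched alpha-globin share.

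Of 5876 genes that reached 20 CPM in at least 1 library, 29 (0.494%) were higher and 33 (0.562%) lower in the knockout library by over 0.5 on the log2 scale, the size used here to call a gene beyond 0.5. The log2 ratio is that of knockout over control CPM. Its median was 0.04, its 5th percentile -0.17 and its 95th percentile 0.22, and 67.3% of genes lay above 0. Centring on the median gene puts 50% above 0, and a total without globin, mitochondrial and ribosomal protein genes puts 58.7% above 0, so a list of small positive ratios says little. Within female cells 70.1% and within male cells 60.1% of measured genes were higher, and 29.9% and 39.9% lower. Of the 62 genes beyond 0.5, 6 were Xist, Tsix or Y-linked. Of the 29 higher genes 27 were higher, and 18 were beyond 0.5, within female as well as within male cells. Of the 33 lower genes 32 were lower, and 20 beyond 0.5, within both sexes, where all measured genes beyond 0.5 made up 0.577% higher and 0.408% lower in female, and 0.461% higher and 0.598% lower in male cells.

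**Figure D1:**
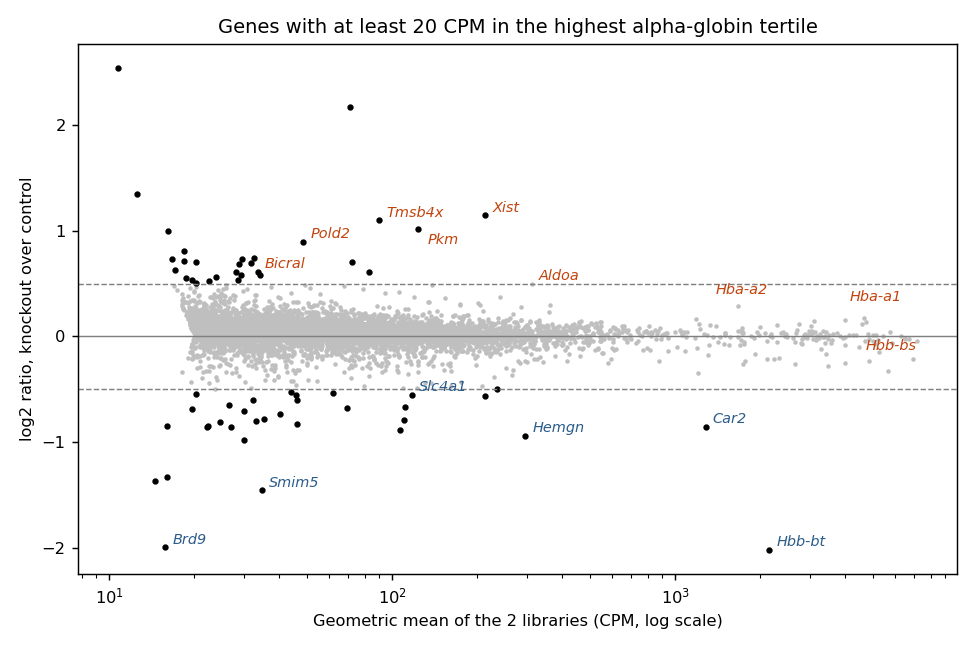
Log2 ratio of knockout over control (vertical axis) against the geometric mean level of the 2 libraries in CPM (log axis) for the 5876 measured genes in the highest alpha-globin tertile. Black points are the 62 genes beyond 0.5 (dashed lines); Hbb-bt at -2.02 stands far below the other highly expressed genes, and Brd9 has a 3.99-fold lower level.

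Brd9 checked the labels. Brd9 (ENSMUSG00000057649, chromosome 13, 73937811 to 73960895 in mm10) stood at 7.91 CPM in knockout and 31.6 CPM in control members, a 3.99-fold lower level (log2 interval -2.14 to -1.85). Within female cells it stood at 8.95 and 31.0 CPM, and within male cells at 6.52 and 32.1 CPM. With each cell thinned to 23372 UMIs, 15.8% of knockout and 51.4% of control members had a Brd9 UMI (24.6% and 67.0% unthinned), leaving out 90 and 69 shallower cells. For Alb, which hepatocytes make and red cells do not, the thinned shares were 1.31% and 1.74%. For Mpo, a granulocyte gene that the gate limits, they were 11.8% and 21.2%. The part of other cells or of free RNA in the remaining Brd9 UMIs was not tested. A 3' tag need not lie in the floxed exons, so the remaining UMIs do not measure intact Brd9 transcript. Its partners in the complex went the other way. Bicral stood at 41.4 and 27.1 CPM (0.61, 0.52 to 0.70) and Bicra at 29.3 and 22.4 CPM (0.38, 0.28 to 0.49), both higher within each sex. Among subunits of the canonical BAF and the PBAF complexes, 18 of 20 measured were higher and 2 lower, with 0 beyond 0.5 and a median of 0.04, the same as the median of all genes. After centring, 13 were higher and 7 lower. Smarcd1 at 0.16 had the largest ratio among them. Of 11 CTCF and cohesin genes, which organise chromosome loops, 7 were higher and 4 lower (6 and 5 after centring). Their median was 0.05, from Wapl at -0.04 to Pds5a at 0.14.

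The adult beta-globin gene Hbb-bt was the most reduced measured gene, while its neighbour Hbb-bs stood at a similar level in both libraries. Hbb-bt (chromosome 7, 103812524 to 103813996 in mm10) was at 1069 CPM in knockout and 4344 CPM in control members, a 4.06-fold lower level and a log2 ratio of -2.02 (-2.04 to -2.01). In knockout cells it stood at 1102 CPM in female and 1007 CPM in male cells, and in control cells at 4582 and 4354 CPM, so both knockout values lay below both control values. Hbb-bs (chromosome 7, 103826534 to 103828096) was at 4746 and 4382 CPM, a ratio of 0.11. Its direction depended on sex, with 4154 and 4554 CPM in female cells (-0.13) and 5587 and 4404 CPM in male cells (0.34). Hba-a1 stood at 4940 and 4368 CPM (0.18) and Hba-a2 at 1836 and 1507 CPM (0.28), and these levels ranked the cells. At matched alpha-globin share, over 5 bins of it, Hbb-bt gave -2.57, -2.30, -2.24, -2.21 and -2.15 from the lowest to the highest bin, and Hbb-bs gave -0.10, -0.13, -0.17, -0.11 and -0.17. The direction of the Hbb-bs ratio thus flips with this matching.

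The makeup of adult beta-globin differed accordingly. Hbb-bt gave 18.4% (18.3 to 18.5) of adult beta-globin UMIs in knockout members and 49.8% (49.6 to 49.9) in control members. The shares were 21.0% and 50.2% in female and 15.3% and 49.7% in male cells. In the lowest alpha-globin bin, control cells held more Hbb-bt than Hbb-bs, at 1705 and 1157 CPM, and in the highest bin less, at 10317 and 13561 CPM. Knockout cells held less Hbb-bt than Hbb-bs in both, at 288 and 1082 CPM and at 2332 and 12055 CPM. Ratios of alpha-globin to beta-globin rest on the value that chose the members, and the part of this in them was not tested. For knockout and control members, alpha-globin summed to 6776 and 5875 CPM, and adult beta-globin to 5814 and 8726 CPM. Alpha-globin UMIs per adult beta-globin UMI came to 1.17 in the knockout and 0.673 in the control library. Alpha-globin UMIs per Hbb-bs UMI came to 1.43 and 1.34. Within female cells the former was 1.21 and 0.643 and the latter 1.54 and 1.29. Within male cells the former was 1.15 and 0.684, and the latter was 1.36 in both libraries. Whole-transcript levels were not measured, and UMI ratios between genes also carry how well each 3' end is captured.

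In single cells, knockout values gathered at low Hbb-bt shares with a tail toward higher ones, and whether they form separate groups of cells was not tested. Among cells with at least 20 adult beta-globin UMIs (1455 knockout and 1534 control cells), the median cell took 10.8% of them from Hbb-bt in the knockout (quartiles 2.44% and 31.1%) and 53.0% in the control (36.9% and 72.4%). Of the knockout cells 9.62% lay above the control median, and 2.67% of control cells lay below the knockout median. Cells with no Hbb-bt UMI numbered 113 (7.77%) in the knockout and 2 (0.130%) in the control. Control cells spread widely too, from 17.3% at the 5th percentile to 92.5% at the 95th. Counting noise in cells with few UMIs adds to this spread, and its share was not tested.

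**Figure D2:**
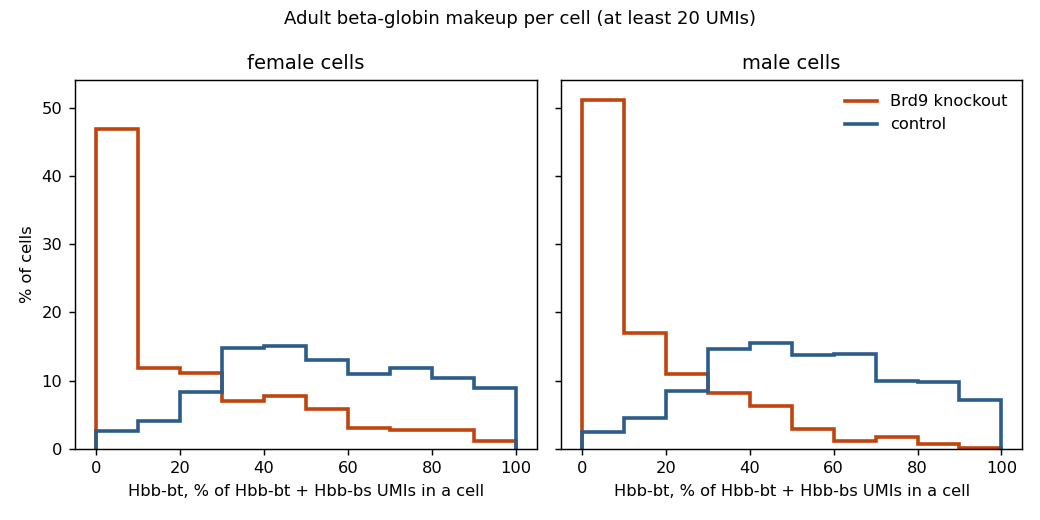
Share of adult beta-globin UMIs that came from Hbb-bt in each cell with at least 20 of them (horizontal axis, bins of 10%), as a percent of cells (vertical axis), for female and male cells of each library. The bin from 0 to 10% held 46.9% of knockout female and 51.1% of knockout male cells, against 2.66% and 2.48% of control cells.

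Embryonic globins were scarce in both libraries. Hba-x, the embryonic alpha-like globin, had 479 knockout and 506 control UMIs, each in 71 cells. A single cell held 21.3% and 18.6% of them. Hbb-bh1 stood at 4.92 and 6.47 CPM (-0.40, -0.62 to -0.18), with -1.17 within female and -0.11 within male cells. Its UMIs lay in 5.83% of knockout and 5.71% of control cells, and the interval does not cover spread between cells. Hbb-y stood at 0.721 and 1.84 CPM (-1.35, -1.89 to -0.83), in 19 and 29 cells. Hbq1b, a theta-like globin, stood at 7.42 and 4.68 CPM (0.66, 0.45 to 0.88). Hbb-bh2 had 3 and 9 UMIs and Hbq1a 3 and 3, too few for a comparison. Summed, the primitive erythroid markers gave 13.5 and 16.7 CPM, far below the adult globins.

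Among carbonic anhydrases and water channels, Car2 and Aqp1 were lower in the knockout library and Car1 was higher. Car2, carbonic anhydrase II, which hydrates carbon dioxide (chromosome 3, 14886273 to 14900770), was at 953 and 1725 CPM, a log2 ratio of -0.86 (-0.87 to -0.84). It stood at 979 and 1696 CPM in female and at 941 and 1746 CPM in male cells, so both knockout values lay below both control values. Its ratio lay between -0.95 and -0.81 in each of the 5 alpha-globin bins. The water channel Aqp1 was at 26.9 and 46.4 CPM (-0.79, -0.88 to -0.70), with 37.8% and 56.9% of thinned cells holding a UMI. Aqp3, a channel for water and glycerol, was at 22.4 and 25.7 CPM (-0.20), but gave 0.04 within female cells. Car1, the other measured carbonic anhydrase, was at 34.7 and 29.0 CPM (0.26, 0.17 to 0.35). The 4 measured members of this list thus counted 3 lower and 1 higher, with 2 lower beyond 0.5 and a median of -0.49. Within female cells they counted 2 lower and 2 higher. Over all measured genes 32.7% were lower and 0.562% were lower beyond 0.5.

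Slc4a1 stood lower in the knockout library than most membrane skeleton genes. Slc4a1, which exchanges chloride for bicarbonate and anchors the skeleton, was at 97.1 and 142 CPM (-0.55, -0.60 to -0.51). Within female cells it was at 86.6 and 133 CPM, and within male cells at 112 and 147 CPM. Since knockout cells sat higher on the alpha-globin scale, on which Slc4a1 climbs steeply, the pooled ratio mixes level with position. At matched share the ratio was -1.11 in the lowest bin (22.3 and 48.3 CPM), -0.99 in the next 2 bins, -0.80 in the fourth and -0.59 in the highest bin (233 and 352 CPM). Sptb, beta-spectrin, was at 258 and 252 CPM (0.03). Ank1, the ankyrin that links spectrin to band 3, was at 402 and 405 CPM (-0.01). Add2, an adducin, gave -0.34 and Mpp1 -0.32, against 0.12 for Add1 and 0.15 for Epb41, the protein 4.1 gene. Of 16 measured members 5 were higher and 11 lower (4 and 12 after centring), with 2 lower beyond 0.5 and a median of -0.03. Over all measured genes 32.7% were lower and 0.562% were lower beyond 0.5.

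Blood group antigen genes leaned lower with small ratios. Of 16 measured members 15 were lower and 1 was higher, with 2 beyond 0.5, Aqp1 and Slc4a1, and a median of -0.14. Over all measured genes 32.7% were lower and 0.562% were lower beyond 0.5. After centring, 16 of 16 were lower, and 15 were lower within female and 14 within male cells. Rhd, the Rhesus antigen gene, was at 381 and 448 CPM (-0.23), and its partner Rhag at 310 and 337 CPM (-0.12). Slc14a1, the urea transporter, gave -0.32, Ermap -0.22, Kel -0.13 and Cd47 -0.13.

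**Figure D3:**
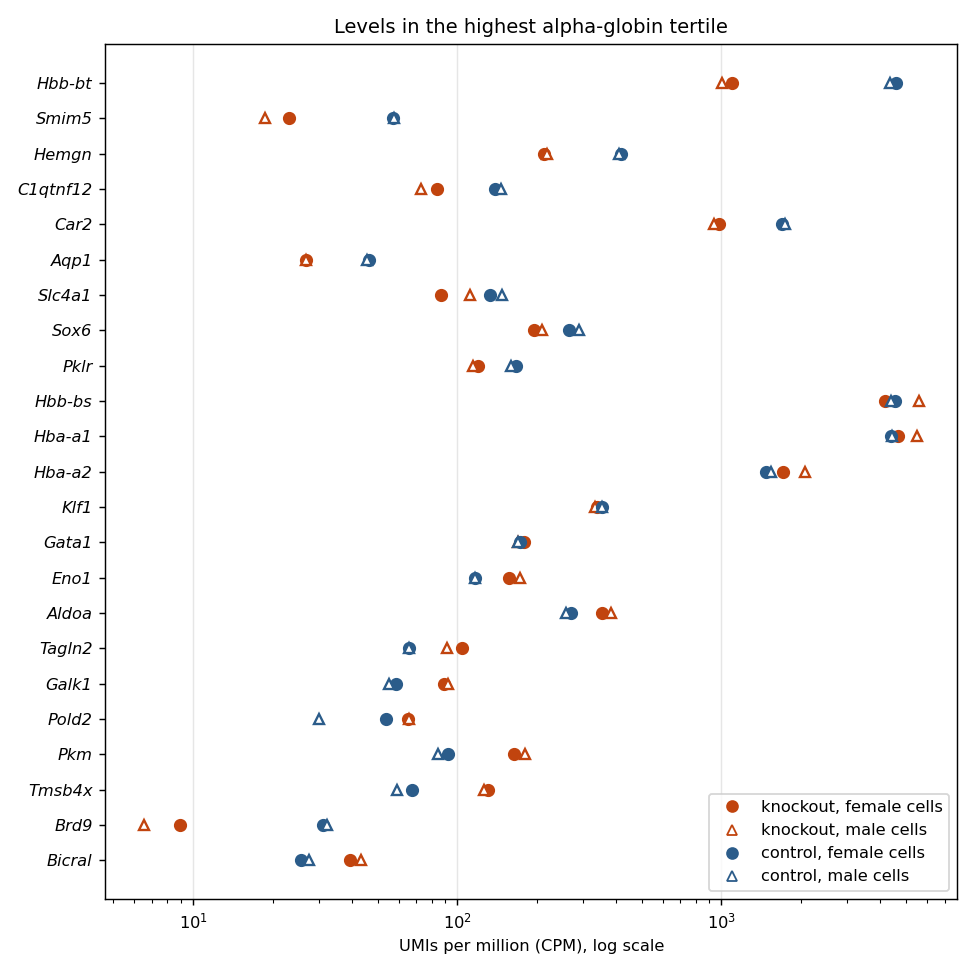
Levels of 23 genes in the highest alpha-globin tertile (horizontal axis, CPM, log scale) for female and male cells of each library. The knockout and control points of Hbb-bt, Smim5, Hemgn, Car2, Pkm and Tmsb4x lie apart in both sexes, while those of Hbb-bs, Klf1 and Gata1 lie close together or cross.

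Heme and iron genes differed little. Of 13 measured heme synthesis genes 10 were lower and 3 higher, with 0 beyond 0.5 and a median of -0.09 (1 higher and 12 lower after centring). Urod, uroporphyrinogen decarboxylase, was at 227 and 280 CPM (-0.30, -0.33 to -0.27). Slc25a38, which brings glycine into mitochondria, gave -0.26 and Uros -0.19. Alas2 gave -0.06 (-0.15 to 0.02), a difference within counting error, and at matched alpha-globin share it went from -0.06 in the lowest to -0.33 in the highest bin. Of 17 iron uptake and storage genes 9 were higher and 8 lower, with a median of 0.01. Tfrc, the transferrin receptor, was at 487 and 505 CPM (-0.05), and Ftl1, the ferritin light chain, at 2169 and 2498 CPM (-0.20). Steap3, an endosomal iron reductase, gave 0.18.

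Most erythroid transcription factors differed little between the libraries, and Sox6 had the lowest ratio. Sox6, which represses embryonic globin genes, was at 198 and 280 CPM, a log2 ratio of -0.50 (-0.53 to -0.47). The ratio was -0.44 in female and -0.46 in male cells, and between -0.78 and -0.50 across the alpha-globin bins. Klf1, whose count helped to choose the cells, was at 334 and 352 CPM (-0.07). Gata1, the leading factor of the lineage, was at 175 and 170 CPM (0.04). Klf13 gave -0.34, Lmo2, a bridging protein of the GATA1 complex, -0.22 and Cbfa2t3, a corepressor, 0.28. Bcl11a, another repressor of embryonic globins, was at 335 and 363 CPM (-0.11), with 0.00 in female and -0.22 in male cells. Of 23 measured members 11 were higher and 12 lower, with 1 beyond 0.5 and a median of -0.01. Epor, the erythropoietin receptor, was at 136 and 170 CPM (-0.32, -0.36 to -0.28), whereas Jak2, its kinase, was at 53.3 and 53.4 CPM. Kit was at 15.3 and 12.2 CPM (0.33, 0.19 to 0.47), and at matched alpha-globin share its ratio ran from 0.24 to 0.64. In male cells alone Kit gave 0.01.

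Genes of late maturation and of enucleation split in direction. Ube2l6, an enzyme of ISG15 conjugation, was at 26.3 and 39.8 CPM (-0.60). Bnip3l, which marks mitochondria for removal, was at 144 and 173 CPM (-0.26). Xpo7, a nuclear exportin of maturing red cells, was at 22.6 and 16.4 CPM (0.46, 0.34 to 0.58). Rac2, a GTPase used in enucleation, gave -0.25 and its relative Rac1 0.08. Of 17 measured genes of late maturation and organelle clearance 8 were higher and 9 lower, with a median of -0.01. Of 13 genes of nuclear condensation and enucleation 10 were higher and 3 lower, with 1 lower beyond 0.5 and a median of 0.04 (7 and 6 after centring). Of 10 survival and death genes 7 were higher and 3 lower (5 and 5 after centring), against 67.3% of all genes higher. Their median was 0.04, and 1 of them was lower beyond 0.5, against 0.562% of all measured genes. Among the higher ones Bid gave 0.16.

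Among metabolic genes the 2 pyruvate kinase genes moved apart. Pkm, the isoform gene of most proliferating cells, was at 176 and 87.2 CPM, a log2 ratio of 1.01 (0.97 to 1.06). Pklr, the red cell and liver isoform gene, was at 118 and 161 CPM (-0.45, -0.49 to -0.40). Both held within each sex, with 0.83 and 1.09 for Pkm and -0.48 and -0.47 for Pklr in female and male cells. Pkm exceeded Pklr in knockout members, and Pklr exceeded Pkm in control members, on this scale of 3' tags. Aldoa, an aldolase, was at 370 and 262 CPM (0.50), and Eno1, enolase 1, at 165 and 117 CPM (0.49). Eno1 has a near-identical copy in the mouse genome, and how reads were split between them is uncertain. Pgk1 gave 0.37 and Pgam1 0.32, but Pfkm, a phosphofructokinase, was at 33.6 and 41.6 CPM (-0.31). Glycolysis genes counted 12 higher and 3 lower of 15, with Pkm beyond 0.5 and a median of 0.14 (11 and 4 after centring). Over all measured genes 67.3% were higher and 0.494% were higher beyond 0.5. Slc16a3, which exports lactate, was at 79.5 and 57.0 CPM (0.48), and Galk1, galactokinase, at 92.0 and 56.6 CPM (0.70, 0.64 to 0.76).

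All 7 measured cholesterol synthesis and uptake genes were higher, with a median of 0.25 and 0 beyond 0.5, against 67.3% of all genes higher. Srebf2, the transcription factor that drives these genes, was at 48.9 and 41.3 CPM (0.25, 0.17 to 0.32), and Fdft1, squalene synthase, at 21.1 and 17.6 CPM (0.26). After centring 6 were higher and Sqle was lower. Scd2, a fatty acid desaturase, was at 123 and 91.6 CPM (0.42). Of 21 oxidative phosphorylation genes 15 were higher and 6 lower, with a median of 0.03 (10 and 11 after centring). Cox6b2, a cytochrome oxidase subunit, stood apart at 103 and 145 CPM (-0.49), while Cox6b1 was at 613 and 604 CPM (0.02). Of 8 serine and glycine genes 7 were higher (6 and 2 lower after centring). Phgdh was at 193 and 156 CPM (0.31), and the exception in the uncentred count, Mthfd1, at 127 and 149 CPM (-0.23).

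**Figure D4:**
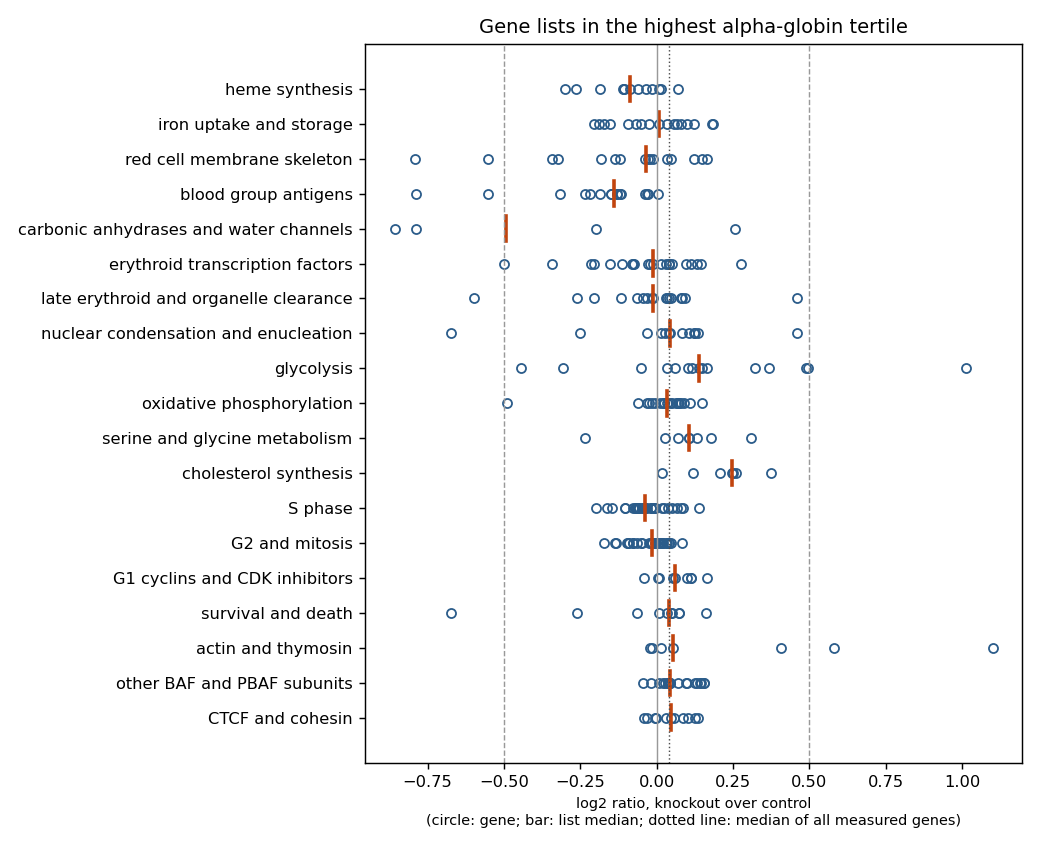
Log2 ratio of knockout over control (horizontal axis) for each measured gene (circles) of 19 gene lists in the highest alpha-globin tertile. Bars are list medians, the dotted line is the median of all measured genes (0.04) and dashed lines mark 0.5; of the lists drawn, which leave out the globins and non-canonical BAF, carbonic anhydrases and water channels had the lowest median (-0.49) and cholesterol synthesis the highest (0.25).

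Actin-binding genes held the highest ratio of any gene that the naming rule could take. Tmsb4x, thymosin beta 4, an X-linked peptide that binds actin monomers, was at 132 and 61.6 CPM, a log2 ratio of 1.10 (1.04 to 1.16). The ratio was 0.96 in female cells and 1.09 in male cells. Tmsb10 was at 108 and 81.6 CPM (0.41), Arpc1b, a subunit of the Arp2/3 complex, at 41.9 and 28.0 CPM (0.58), and Tagln2, transgelin 2, at 102 and 67.2 CPM (0.61). Actb, at 1755 and 1691 CPM, and Pfn1, at 848 and 860 CPM, gave 0.05 and -0.02. Actin and thymosin genes counted 5 higher and 2 lower of 7 measured (4 and 3 after centring), with 2 higher beyond 0.5 and a median of 0.05. Over all measured genes 67.3% were higher and 0.494% were higher beyond 0.5.

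Cell cycle genes had small ratios, and those of S phase and of mitosis leaned lower in the pooled cells. Of 31 S-phase genes 8 were higher and 23 lower, with a median of -0.04 (5 and 26 after centring). Of 29 genes of G2 and mitosis 11 were higher and 18 lower, with a median of -0.01 (3 and 26 after centring). Over all measured genes 32.7% were lower. Within female cells the genes of G2 and mitosis counted 18 higher and 11 lower, and within male cells 8 higher and 21 lower. The S-phase genes counted 11 higher and 20 lower in female cells, and 10 and 21 in male cells. Rrm2, a ribonucleotide reductase subunit, was at 310 and 356 CPM (-0.20), and Hmgb2 at 1808 and 2035 CPM (-0.17). Mki67 was at 627 CPM in both libraries. Of 9 measured G1 cyclins, kinases and related genes 8 were higher (6 and 3 lower after centring), with a median of 0.06 and Cdk6 at 0.16.

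Pold2, a subunit of DNA polymerase delta, was at 66.2 and 35.6 CPM (0.89, 0.82 to 0.97), while Pold1 and Pold3 gave 0.07 and 0.10. The control sexes differed at Pold2, with 53.7 CPM in female and 29.9 CPM in male cells, against 64.9 and 65.9 CPM in knockout cells. The ratio was therefore 0.27 within female and 1.14 within male cells. Kdm6a, an X-linked gene that escapes X inactivation, gave 0.45 in the pooled cells but 0.12 within female and 0.20 within male cells. H2-K1, a class I histocompatibility gene similar in sequence to H2-D1, was at 34.8 and 22.9 CPM (0.61), with H2-D1 at 62.3 and 58.7 CPM (0.09) and B2m at 59.5 and 63.2 CPM (-0.09).

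Other genes with low ratios were Smim5, Hemgn, C1qtnf12 and Sh2d4a. Smim5, a small membrane protein gene, was at 21.0 and 57.5 CPM, a 2.75-fold lower level and a log2 ratio of -1.46 (-1.55 to -1.36). Hemgn, hemogen, a nuclear protein of blood cells, was at 213 and 409 CPM (-0.94, -0.97 to -0.91). Across the 5 alpha-globin bins Hemgn gave between -1.04 and -0.93, so its ratio did not follow position in the tertile. C1qtnf12, which encodes a secreted protein, was at 78.4 and 145 CPM (-0.89), and Sh2d4a at 34.6 and 61.3 CPM (-0.83). Cpd, carboxypeptidase D, gave -0.67, Gstm5, a glutathione transferase, -0.56 and Map4k1, a kinase of blood cells, -0.56. Each of these 7 genes was lower within both sexes. Ptprj, a receptor phosphatase, gave 0.46 and was higher within both. Airn, a noncoding RNA that overlaps Igf2r on the opposite strand, gave 0.48, but strand use in counting is not stated in the labels, so reads of the pair cannot be told apart. Apoe was at 5.83 and 11.7 CPM (a 2.01-fold lower level, log2 interval -1.19 to -0.82), with -0.14 within female and -1.66 within male cells. Mpo, a granulocyte gene that the gate limits, was at 6.01 and 10.6 CPM beside it, and the granulocyte-monocyte markers summed to 17.4 and 33.4 CPM. The part of other cells or of free RNA in the Apoe value was not tested.

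Most of the lower genes were beyond 0.5 in both groups of earlier erythroid cells too. Most of the higher genes were also beyond 0.5 in the middle tertile, and 14 of 29 were in the lowest tertile. Of the 29 higher genes 20 were also beyond 0.5 in the middle alpha-globin tertile and 14 in the lowest tertile, where 0.496% and 0.463% of measured genes were. Of the 33 lower genes 30 and 28 were, against 0.578% and 0.661%. All 62 had the same direction in both other tertiles, where 65.2% and 55.2% of measured genes were higher and 34.8% and 44.8% lower. The tertiles came from the same 2 libraries, so this does not replicate the genotype. Of the 62 genes, 6 were Xist, Tsix or Y-linked. Female cells made up 63.7% of knockout and 22.6% of control cells in the lowest tertile, and 64.8% and 26.7% in the middle tertile. Hbb-bt gave -1.91 in the lowest, -2.03 in the middle and -2.02 in the highest tertile, although its control level climbed from 74.3 to 457 and 4344 CPM. Car2 gave -0.79, -0.79 and -0.86. Slc4a1 gave -0.15 (-0.62 to 0.33), -1.03 (-1.25 to -0.82) and -0.55, of which the lowest tertile rested on about 1 CPM.

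Ratios also differed between the highest and the lowest tertile. Of the genes that reached 50 CPM in at least 1 library in both tertiles, those with the widest differences included Eid1, Mkrn1, Gstm5, Tagln2, Crip1 and Slc25a4. Some genes with lower levels differed by more, such as Kit (-0.18 in the lowest and 0.33 in the highest tertile) and Alas2 (0.41 and -0.06). Gstm5 went from -0.26 to -0.42 and -0.56 over the lowest, middle and highest tertile, Eid1 from -0.15 to -0.49 and Mkrn1, a ubiquitin ligase, from -0.16 to -0.47. Tagln2 went from 0.18 to 0.36 and 0.61, Crip1 from -0.10 to 0.29, Slc25a4, the mitochondrial ADP/ATP carrier, from 0.01 to 0.37 and Scd2 from 0.08 to 0.42. Levels of Tagln2 drop with alpha-globin share in both libraries. In the control library Tagln2 stood at 266, 137 and 67.2 CPM over the 3 tertiles. These differences between tertiles were not tested.

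**Figure D5:**
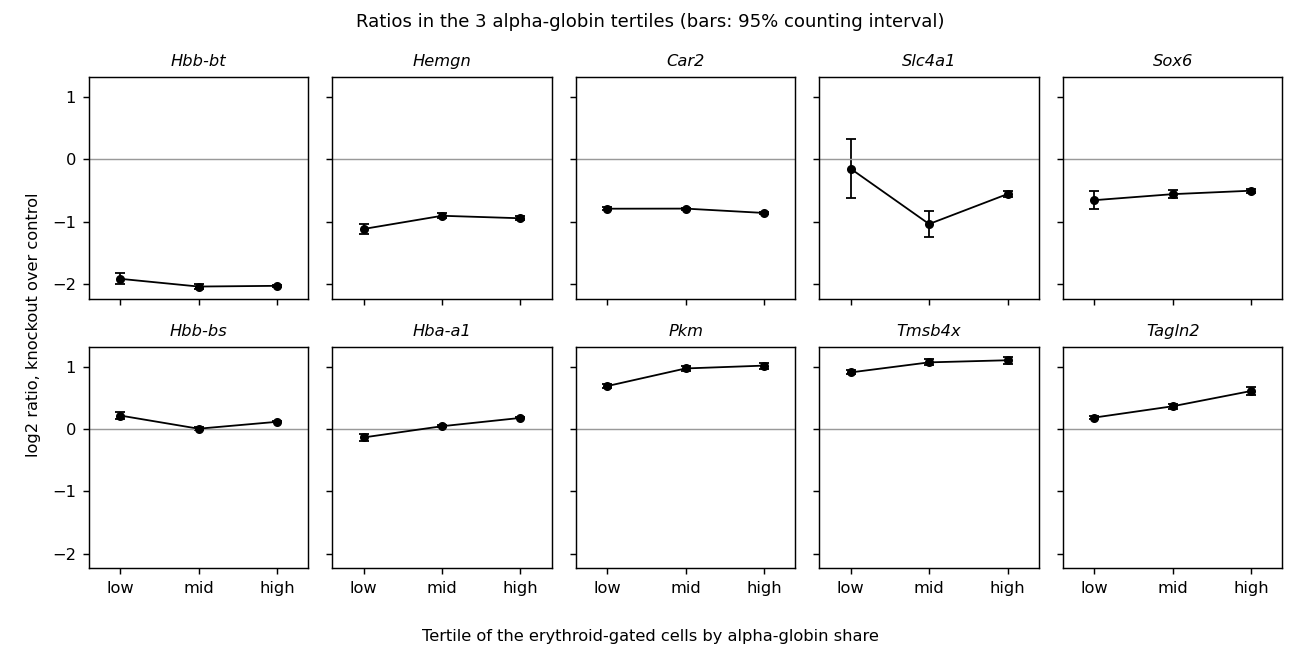
Log2 ratio of knockout over control (vertical axis) of 10 genes in the lowest, middle and highest alpha-globin tertile (horizontal axis), with 95% intervals that cover counting error only. Hbb-bt, Hemgn, Car2, Sox6, Pkm and Tmsb4x kept 1 direction in each tertile, the interval of Slc4a1 in the lowest tertile spans 0, and Tagln2 went from 0.18 to 0.61.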

How the data were processed

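Lineage- c-Kit+ fetal liver cells were measured with the 10x Genomics 3' kit, per the labels' protocols, in 2 libraries. Cell Ranger 7.2.0 and mm10 are named in the submitters' processing notes, and the authors deposited whole UMI counts per gene and barcode, not normalized. The treatment of intronic reads is not stated in the sources used here. Of 32285 gene identifiers, 32235 matched GENCODE M21.

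Cells passed with 1000 genes and 2000 UMIs or more and with 10% or less of UMIs from mitochondrial genes. The gate was Klf1 at least 3, Med12l plus Prkg1 under 3, Mpo plus Prtn3 under 30, S100a8 plus S100a9 under 30, Pf4 under 10, Irf8 plus Ly86 under 4, and Ms4a2, Mcpt8, Gzmb and Fcer1a together under 4 UMIs. Gated cells of both libraries were ranked together. Scrublet in scanpy 1.11.5, at an expected rate of 6%, marked 3.87% and 3.55% of filtered cells and 39 and 26 members as doublets, which were kept and left out as an alternative. Cells with 3 or more Xist UMIs and no more than 1 UMI of 4 Y-linked genes were called female, and those with no more than 1 Xist UMI male.

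UMIs were summed per library and scaled to 1e6 (CPM). Log2 ratios have conditional exact intervals, shares Clopper-Pearson intervals and ratios of shares log-normal ones (scipy 1.17.1), at 95%. Simulated counts of known fold change were used to test the ratio calculation. Named genes were the 12 highest and 12 lowest ratios at 50 CPM or more, the 8 each way by the weaker sex, the 8 each way that differed most from the lowest tertile, up to 4 per list, and globins, Brd9 partners and erythroid genes always. Xist, Tsix, Y-linked, mitochondrial, ribosomal protein, predicted and gating genes, and genes with over 10% of UMIs in 1 cell, were left out, and a few genes are not reported here. Cells, lists and the rule were chosen with earlier results of these data known. Alternatives covered doublets, sex, cell order, scaling, depth and minimum level. Weighting the sexes equally was added after seeing the data.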

Additional observations from a re-analysis of the deposited data

Results flagged for a closer look

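A few ratios pointed one way in female and the other way in male cells. None of these differences was tested, and each sex may stand for few embryos. The log2 ratio of Hbb-bs was -0.13 in female and 0.34 in male cells, a difference of 0.48. That of Stat5b, a transcription factor downstream of the erythropoietin receptor, was 0.19 and -0.10, a difference of -0.29. That of Ccnd2, a G1 cyclin, was 0.29 and -0.14, a difference of -0.43. That of Hba-x was 1.36 and -0.87, a difference of -2.23, but its UMIs lay in 71 cells of each library and 1 cell held 21.3% of the knockout and 18.6% of the control UMIs.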

How the results depend on the processing

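The share of gated cells in the highest tertile gave a ratio of 1.25 in male cells alone, 1.18 for the highest quartile, and 0.987 (0.933 to 1.05) when cells were ordered by a set of other red cell genes that includes Slc4a1, Alas2 and Epb42, which turned its direction. By that order 82.3% of knockout and 87.2% of control members stayed in the highest tertile. Genes beyond 0.5 numbered 147 higher and 90 lower with a minimum of 5 CPM, 7 and 17 with 50 CPM, and 5 and 9 with 100 CPM, where 8539, 3370 and 1731 genes were counted. Under the other alternatives 24 to 35 were higher and 24 to 40 lower. Of 28 named genes beyond 0.5, 419 of 420 values under alternatives kept their direction and 397 stayed beyond 0.5. The exception was Hbb-bh2, at 0.26 in male cells alone, which rests on 12 UMIs in all. Of 1648 values of the other named genes, 32 had the opposite sign. No paired analysis was possible because each genotype had 1 library. For the same reason no library could be left out, and depth limits only genes with few UMIs.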
